A study of Mus musculus with 2 samples.

Results

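The TNF superfamily genes described here are the 32 genes whose symbol on the array begins with Tnfsf or Tnfrsf and a number, out of 19321 named genes. They were chosen by name alone and were read by 33 probes. They comprise 11 ligands, 4 receptors with an intracellular death domain, 16 other receptors and 1 antisense transcript, Tnfsf13os. Both arrays carried total RNA of whole liver from mice aged 24 weeks. The conditional knockout, CKO, is Twist2-Cre/A20fl/fl, with A20 flanked by loxP sites, and the control carries Twist2-Cre without a floxed A20 allele in its label. Both groups thus carry the same Cre, which is known to act in mesenchymal lineages, so A20 is not targeted in every cell of the liver. There was 1 array per genotype, and the labels state neither the strain nor how many animals each RNA came from. No test, p-value or replicate error was therefore possible, and having so few arrays limits the precision.

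Ligands of this family are trimeric membrane proteins, some of them shed, and their receptors pass the signal on through TRAF adaptors to NF-kB or, where a death domain is present, to caspases as well. A20 is the product of Tnfaip3 and dampens NF-kB activation below these receptors by altering ubiquitin chains. In liver the family is known for hepatocyte killing through death receptors, for the repair response to TWEAK, and for costimulation of infiltrating lymphocytes. The comparison asks which of these transcripts differ in level between the genotypes.

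The liver label was checked by hepatocyte markers, of which 9 of 9 were above background on both arrays, with albumin, Alb, at deposited intensities of 36770 in CKO and 37445 in control liver. Tnfaip3 had deposited intensities of 38 in CKO and 41 in control liver, with a log2 ratio of -0.07. The sources used here do not place this probe on the transcript, so the value does not check the label. A spot counted as above background when it exceeded the mean of the 384 blank spots by 2 SD. By this measure 17282 gene spots (73.6%) were above background on the CKO array and 17318 (73.8%) on the control array.

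Most TNF superfamily transcripts were dim or undetected on these arrays, and the 3 receptors with most signal had similar levels in both livers. Tnfrsf18 and Tnfsf8, dimmer but clear of the background threshold, differed more in the deposited values. Tnfrsf18 was 2.25-fold higher in CKO liver, and for Tnfsf8 control exceeded CKO 1.60-fold. Of the 32 genes, 20 (62.5%) were above background on both arrays, against 73.2% of all named genes. Another 4 were above background on the CKO array only, where 2.41% of all named genes were, 1 on the control array only, where 2.48% were, and 7 on neither, where 21.9% were. Only 3 members reached a deposited intensity of 50 on both arrays, namely the receptors Tnfrsf23, Tnfrsf1b and Tnfrsf12a. The deposited median was 25 on both arrays, and the share of all genes that reached 50 was not computed. In bulk tissue, fewer cells of a type and less RNA per cell cannot be told apart.

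**Figure D1:**
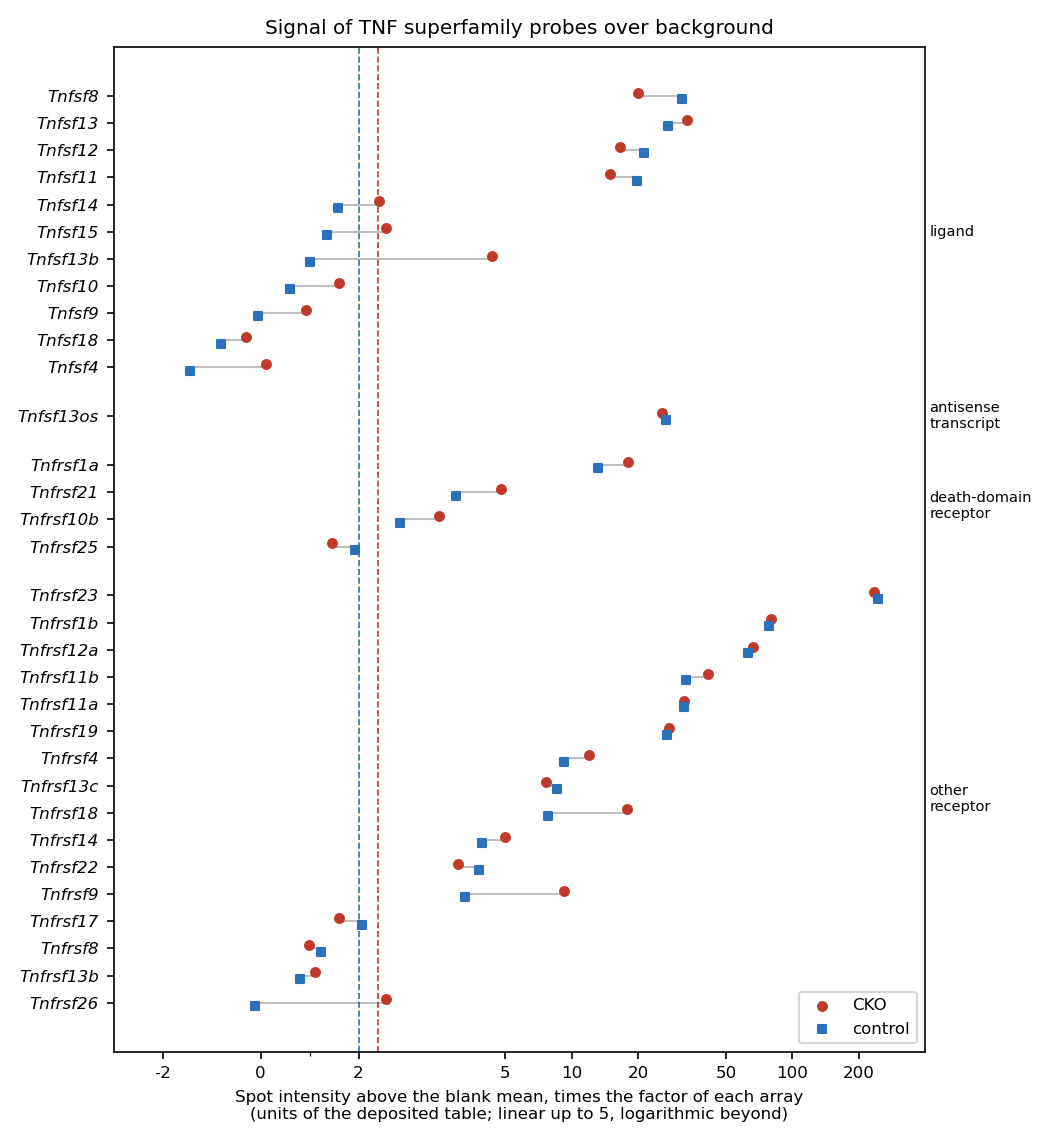
Spot intensity above the blank mean for each member (x axis, units of the deposited table, linear up to 5 and logarithmic beyond), with CKO as red circles and control as blue squares, 1 array each and no error bars. Dashed lines mark the background threshold of the CKO array (2.39) and the control array (2.01); Tnfsf15 is drawn by its brighter probe, most ligands sit at or near these lines or left of them, and the 3 receptors with most signal have nearly coinciding points.

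The main scale was the log2 ratio of CKO over control after normexp background correction with an offset of 50 and quantile normalization. On it no member was 2-fold higher or 2-fold lower (0 of 20). Of 14143 genes tested, 0.636% were higher by at least that fold and 0.0778% were lower. At 1.5-fold the count of members was also 0, where 1.71% of genes were higher and 0.417% lower. It was 0 with an offset of 16 (1.28% of genes higher, 0.134% lower) and, over all 32 members, with no filter on dim genes (0.466% higher, 0.0569% lower). The median log2 ratio of the 20 members was 0.01, with 12 higher and 8 lower. Over all genes tested the median was -0.02, with 5974 higher and 8168 lower. Ratios of the members ran from -0.24 to 0.25. The offset compresses the ratios of dim genes: by its arithmetic, an exact doubling of the control signal would have read between 0.09 and 0.89 on this scale for these 20 genes, with a median of 0.40. Absence of a call on it is therefore a weak statement for most members, and the deposited intensities, which carry no offset, are given beside it. Of the members, 21 had a deposited value on both arrays, and 2 of them were at least 2-fold higher in CKO liver (4.0% of 14638 genes were) and none was lower by that fold (1.33% of genes were). The same 2 members passed with the blank mean subtracted and no offset, where 3.05% of genes were higher and 0.594% lower. This is not independent support. The deposited values are close to the spot intensity less the blank mean, times a factor of each array. Both members were receptors of lymphocytes, Tnfrsf18 and Tnfrsf9. In the deposited values 18 of the 21 lay within 1.5-fold. The share of all genes within that fold was not computed, so this count does not set the family apart.

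**Figure D2:**
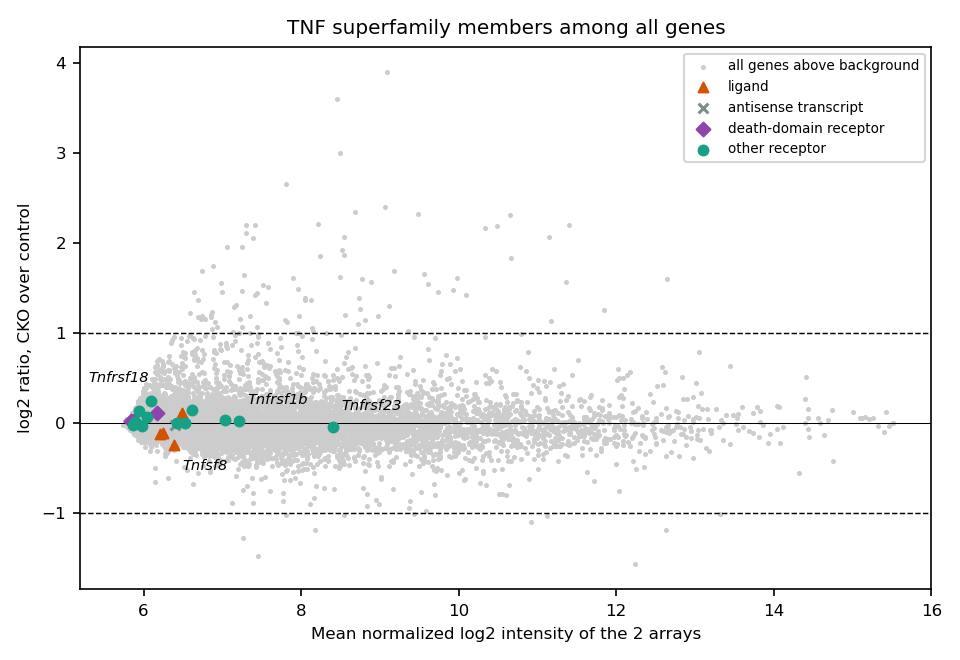
Log2 ratio of CKO over control (y axis) against the mean normalized log2 intensity of the 2 arrays (x axis) for 14143 genes above background on both arrays (grey) and the 20 TNF superfamily members among them (coloured by subgroup). Dashed lines mark 2-fold; all members lie between -0.24 and 0.25, and most sit at the dim end.

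The promoters of 3 members are shown: Tnfrsf18 and Tnfrsf9, the pair past 2-fold in the deposited values, and Tnfsf8, the member with the lowest ratio on the offset scale. Each window runs from 250 bases before to 50 after a transcription start in the RefSeq table (GRCm38.p6). Capitals mark matches to the NF-kB consensus, searched on both strands, and to TTCNNNGAA, the GAS element bound by STAT factors, whose pattern reads the same on both strands.
Tnfrsf18, chr4:156026072-156026371, plus strand: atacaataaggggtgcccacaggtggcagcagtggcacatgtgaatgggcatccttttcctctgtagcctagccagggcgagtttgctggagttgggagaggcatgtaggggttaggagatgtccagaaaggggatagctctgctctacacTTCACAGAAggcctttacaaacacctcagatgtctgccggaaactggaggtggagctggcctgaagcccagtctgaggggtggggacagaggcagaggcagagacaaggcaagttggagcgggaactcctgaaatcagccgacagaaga
Tnfrsf9, chr4:150927749-150928048, plus strand: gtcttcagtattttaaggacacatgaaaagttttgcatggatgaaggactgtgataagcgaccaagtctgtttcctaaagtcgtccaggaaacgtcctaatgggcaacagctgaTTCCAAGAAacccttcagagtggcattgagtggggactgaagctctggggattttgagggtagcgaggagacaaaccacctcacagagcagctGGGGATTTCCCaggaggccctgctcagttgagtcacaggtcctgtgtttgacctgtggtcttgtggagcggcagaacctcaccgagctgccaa
Tnfsf8, chr4:63861235-63861534, minus strand: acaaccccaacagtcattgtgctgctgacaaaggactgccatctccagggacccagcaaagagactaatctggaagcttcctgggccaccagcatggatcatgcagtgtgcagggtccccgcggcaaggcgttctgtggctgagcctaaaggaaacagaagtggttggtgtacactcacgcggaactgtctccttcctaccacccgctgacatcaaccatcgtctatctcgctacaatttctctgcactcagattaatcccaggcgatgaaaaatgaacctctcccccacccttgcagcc

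Tnfrsf18 had 1 GAS match and no NF-kB match, this Tnfrsf9 start had 1 GAS match and a pair of NF-kB matches that overlap each other, and Tnfsf8 had neither. No GAS match overlapped an NF-kB match in these windows. The table holds another Tnfrsf9 start, whose window held neither motif. Over all 32851 promoter windows, 8.46% held the NF-kB consensus and 8.30% the GAS pattern. Among the members, 24 genes matched the table with 28 windows, of which 3 held the NF-kB consensus and 6 the GAS pattern. These matches describe letters only and say nothing about binding in these livers.

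Among the ligands, 4 of 11 were above background on both arrays, with a median log2 ratio of -0.11. Of those 4 ligands 3 were lower in CKO liver, where 8168 of all 14143 genes were lower. Against the local background column 2 of 4 were lower, where 8368 of all genes were. With 4 ligands these counts do not set them apart from all genes. Tnfsf8, the CD30 ligand of activated lymphocytes, had deposited intensities of 20 in CKO and 32 in control liver. Its log2 levels were 6.27 in CKO and 6.51 in control liver, a ratio of -0.24 where the spread of ratios among genes of its level was 0.11. This was the lowest ratio of the family on the offset scale, and 5.27% of all genes tested had a ratio as low or lower. Against the local background column it was -0.05, and Tnfsf12 was then the lowest member at -0.18. In the deposited values control exceeded CKO 1.60-fold, and moving each spot by 2 SD of the blank spots gives 1.32 to 1.91. That range covers the scatter of blank spots only, not the error between arrays or animals.

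Tnfsf11, which encodes RANKL, the osteoclast differentiation factor, had deposited intensities of 15 in CKO and 20 in control liver and a log2 ratio of -0.12, which was 0.01 against the local background column. Tnfsf12 encodes TWEAK, a ligand that acts on injured tissue. It had 17 in CKO and 21 in control liver, with a ratio of -0.11. Moved by the blank scatter, the fold of control over CKO spans 1.03 to 1.75 in Tnfsf11 and 1.02 to 1.65 in Tnfsf12, so the lower end of both ranges is just above 1. Tnfsf13, encoding the plasma cell survival factor APRIL, was the exception among these ligands, with 33 in CKO and 27 in control liver and a ratio of 0.11. Its antisense transcript Tnfsf13os had 26 and 27 in CKO and control liver and a ratio of -0.03, which was 0.18 against the local background column. The labels do not say which strand these probes read, so a signal shared between Tnfsf13 and Tnfsf13os cannot be told apart.

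The ligands without signal in control liver included several of the best known. Tnfsf13b, which encodes the B cell survival factor BAFF, was above background only in CKO liver, with a deposited intensity of 5 there and no listed value in control liver. This bounds the difference on the offset scale at 1.05-fold or more. The offset compresses such a bound, so it does not show the difference to be small. Tnfsf14, which encodes LIGHT, and Tnfsf15, which encodes TL1A, also passed the threshold in CKO liver only, at deposited intensities of 2 and 3. Tnfsf14 was listed at 2 in control liver too, and of the 2 probes for Tnfsf15 only 1 passed, so neither value establishes a difference. Tnfsf10, encoding the death ligand TRAIL, and the costimulatory ligands Tnfsf4, Tnfsf9 and Tnfsf18 were above background on neither array.

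The death-domain receptors had little signal, and their ratios were small on the offset scale, which compresses them. Of the 4 genes, 3 were above background on both arrays, with a median log2 ratio of 0.02 on that scale. An exact doubling would have read there 0.09 for Tnfrsf10b, 0.12 for Tnfrsf21 and 0.30 for Tnfrsf1a. The median was 0.27 with the blank mean subtracted and 0.42 in the deposited values. All 3 ratios were above 0 on the offset scale, but those of Tnfrsf10b and Tnfrsf21 were -0.01 and -0.01 against the local background column. Tnfrsf1a, the principal receptor for TNF, had deposited intensities of 18 in CKO and 13 in control liver. Its log2 levels were 6.23 in CKO and 6.11 in control liver, a ratio of 0.11 that 14.2% of all genes reached or exceeded and that was 0.01 against the local background column. Moved by the blank scatter, the deposited fold spans 1.03 to 1.83. Tnfrsf10b, the TRAIL receptor, had 4 in CKO and 3 in control liver, and Tnfrsf21, known as death receptor DR6, had 5 in CKO and 4 in control liver. Each of these differed by 1 unit of a table that is rounded to whole numbers. Tnfrsf25, the receptor for TL1A, was above background on neither array.

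The receptors with most signal had nearly equal values, and since their signal is far above the blanks these comparisons are the least affected by blank scatter. The error between arrays or animals remains unknown for them too. Tnfrsf23, which encodes a decoy receptor for TRAIL in the mouse, had deposited intensities of 235 in CKO and 245 in control liver. Its log2 levels were 8.38 in CKO and 8.42 in control liver, a ratio of -0.04 where genes of its level had a spread of 0.18. Against the local background column its ratio was -0.17. Tnfrsf1b, the TNF receptor found mainly on leukocytes and endothelium, had 80 in CKO and 79 in control liver and a ratio of 0.02, which was -0.13 against the local background column. Tnfrsf12a, also called Fn14, is the receptor for TWEAK and is known to be induced on injured liver cells. It had 66 in CKO and 63 in control liver, with a ratio of 0.04. For these 3 genes an exact doubling would have read at least 1.5-fold on the offset scale, while their ratios on that scale lay between -0.04 and 0.04.

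Tnfrsf11b, which encodes osteoprotegerin, the soluble decoy for RANKL, had deposited intensities of 42 in CKO and 33 in control liver, with log2 levels of 6.69 and 6.54 in CKO and control liver. Its ratio of 0.15 was the next after Tnfrsf18 on the higher side, and 11% of all genes reached or exceeded it. Tnfrsf11a, the signalling receptor for RANKL, was listed at 32 in both livers. Tnfrsf19, called TROY, had 28 in CKO and 27 in control liver. All 3 RANKL genes lay within 1.5-fold in the deposited values.

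Costimulatory receptors of T and NK cells included the member with the highest ratio, Tnfrsf18, and the pair past 2-fold in the deposited values. Tnfrsf18, also called GITR, is carried by regulatory and activated T cells. It had deposited intensities of 18 in CKO and 8 in control liver, with log2 levels of 6.22 in CKO and 5.97 in control liver. Its ratio of 0.25 stood against a spread of 0.07 among genes of its level, and 6.09% of all genes reached or exceeded it. In the deposited values it was 2.25-fold higher in CKO liver, a fold that 2.77% of genes reached or exceeded, and moving it by the blank scatter gives 1.57 to 3.49.

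Tnfrsf9, also called CD137, marks activated T and NK cells. It had deposited intensities of 9 in CKO and 4 in control liver and a log2 ratio of 0.14, against a spread of 0.06 at its level. The deposited fold was again 2.25, which the blank scatter moves between 1.10 and 5.35. An exact doubling would have read only 0.12 on the offset scale for Tnfrsf9 and 0.21 for Tnfrsf18, so both ratios are of the size that a doubling gives there. Tnfrsf4, also called OX40 and the chromosomal neighbour of Tnfrsf18, had 12 in CKO and 9 in control liver with a ratio of 0.07, which was -0.05 against the local background column. The ligands of these receptors, Tnfsf18, Tnfsf9 and Tnfsf4, were above background on neither array. With normexp against the local background column the ratios of Tnfrsf18 and Tnfrsf9 were near 0, at 0.01 and 0.03.

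T cell and NK cell markers were mostly higher in CKO liver on the offset scale. Of 10 T cell markers on the array 7 were above background on both arrays, with 6 higher in CKO liver and a median log2 ratio of 0.33. Their summed deposited intensity, with unlisted genes as 0, was 181 in CKO and 54 in control liver, while Cd3e and Trat1 were above background on neither array. Of 8 NK cell markers 5 were above background on both, with 4 higher and a median of 0.28, a summed intensity of 161 in CKO and 54 in control liver, and Ncr1 and Klrb1c on neither. Against the local background column the medians were 0.05 for the T cell markers, with 5 of 7 higher, and 0.00 for the NK cell markers, with 3 of 5 higher. The part of these cells in the ratios of Tnfrsf18 and Tnfrsf9 was not tested.

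**Figure D3:**
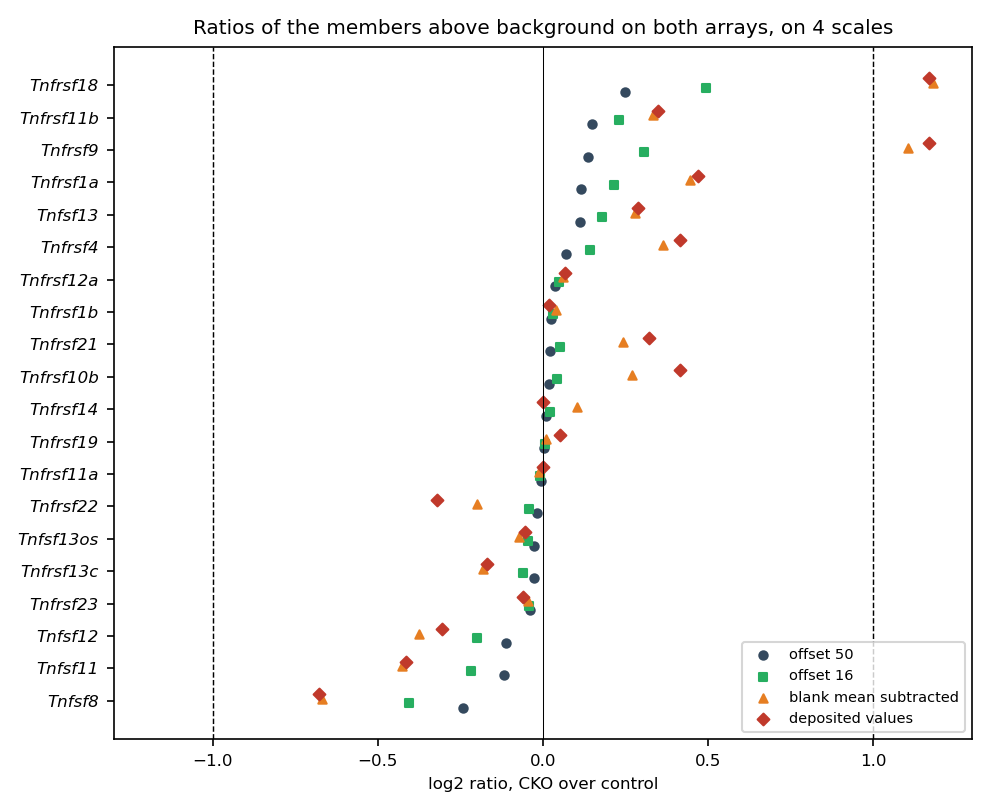
Log2 ratio of CKO over control (x axis) for the 20 members above background on both arrays (y axis), on 4 scales shown by colour, with 1 array per genotype and no error bars. Dashed lines mark 2-fold; Tnfrsf18 and Tnfrsf9 pass it with the blank mean subtracted and in the deposited values, and the receptors with most signal stay near 0 on every scale shown.

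Receptors of B cells and the remaining receptors were dim and near level. Tnfrsf13c, the BAFF receptor, had deposited intensities of 8 in CKO and 9 in control liver and a ratio of -0.03. Tnfrsf17, the plasma cell receptor BCMA, was listed at 2 in control liver and unlisted in CKO liver, and Tnfrsf13b, called TACI, was above background on neither array. The B and plasma cell markers had a median log2 ratio of 0.03 on the offset scale, with 4 higher and 2 lower. Against the local background column their median was -0.01, with 3 higher and 3 lower. Their summed deposited intensity was 114 in CKO and 105 in control liver over 8 genes on the array. Fcrla was 2-fold higher there, at 4 in CKO and 2 in control liver, while Blk and Pax5 were above background on neither array. Tnfrsf14, the receptor for LIGHT, was listed at 5 in both livers. Tnfrsf22, a decoy receptor for TRAIL in the mouse and the neighbour of Tnfrsf23, had 4 in CKO and 5 in control liver. Tnfrsf26, the third gene of that cluster, was listed at 3 in CKO liver and unlisted in control liver, and Tnfrsf8, the receptor CD30, was above background on neither array.

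The list of ligand and receptor pairs among these genes holds 15 and is not complete, since it leaves out the TRAIL decoy receptors Tnfrsf22 and Tnfrsf23. Of the listed pairs, both partners were above background on both arrays in 3, namely RANKL with its signalling receptor, RANKL with osteoprotegerin, and TWEAK with Fn14. In 6 pairs only the receptor was, in 3 only the ligand, and in 3 neither. In the TWEAK pair the ligand had a ratio of -0.11 and the receptor one of 0.04.

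Family members that carry other symbols, such as Tnf and Fas, were similar as a group with 1 exception. Of 15 genes 10 were above background on both arrays, with 5 higher, 5 lower and none past 2-fold, and a median log2 ratio of 0.00, while 3 were higher and 7 lower against the local background column. Fas, the receptor for Fas ligand and a death-domain receptor of hepatocytes, had deposited intensities of 203 in CKO and 125 in control liver and a ratio of 0.55, but -0.38 against the local background column. The next largest ratios were 0.13 for Cd40 (-0.01 against that column), -0.07 for Edar and -0.05 for Ltb. Tnf itself was above background on the CKO array only, with a deposited intensity of 5 there, which bounds the difference on the offset scale at 1.05-fold or more. The offset compresses this bound as well, so it does not show the difference to be small.

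Downstream adaptors and NF-kB components had a median near that of all genes, and the side on which most of them lay depended on the background correction. All 28 of the 32 listed genes that are named on the array were above background, with 20 higher, 8 lower, none past 2-fold on the offset scale and a median of 0.03, where 5974 of all 14143 genes were higher. Against the local background column 11 were higher and 17 lower, with a median of -0.01. The NF-kB inhibitor Nfkbia had deposited intensities of 534 in CKO and 346 in control liver and a ratio of 0.62, which was 2.10 against that column, and the A20-binding protein Tnip1 had 92 in CKO and 51 in control liver and a ratio of 0.53. Nfkb2, the precursor of the noncanonical NF-kB subunit, had 54 in CKO and 35 in control liver and a ratio of 0.30, which was 0.04 against that column. Traf1, the adaptor that binds receptors such as CD137 and is itself an NF-kB target, had 16 in CKO and 5 in control liver and a ratio of 0.28, also 0.04 against that column. Traf1 was the only gene of this list past 2-fold in the deposited values. Of 14 markers of Kupffer cells and macrophages, 13 were above background on both arrays and 13 of those were higher, with a median of 0.82 and a summed deposited intensity of 6871 in CKO and 2168 in control liver. Of 9 monocyte markers 7 were above background on both arrays and 7 of those were higher, with a median of 0.97, a summed intensity of 3783 in CKO and 1178 in control liver, and Itgam on neither array. Endothelial markers had a median of -0.22, with 3 higher and 7 lower, and cholangiocyte markers one of -0.18, with 0 higher and 5 lower. Stellate cell and fibroblast markers had a median of 0.06, with 7 higher and 3 lower. Medians were 0.03 for dendritic cell markers, with 4 higher and 3 lower, and 0.03 for neutrophil markers, with 6 higher and 2 lower. Against the local background column the medians were 0.27 for macrophages, 0.34 for monocytes, -0.05 for endothelium and -0.16 for cholangiocytes. They were 0.03 for stellate cells and fibroblasts, 0.01 for dendritic cells and 0.05 for neutrophils. The part of these cells in the ratios was not tested.

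**Figure D4:**
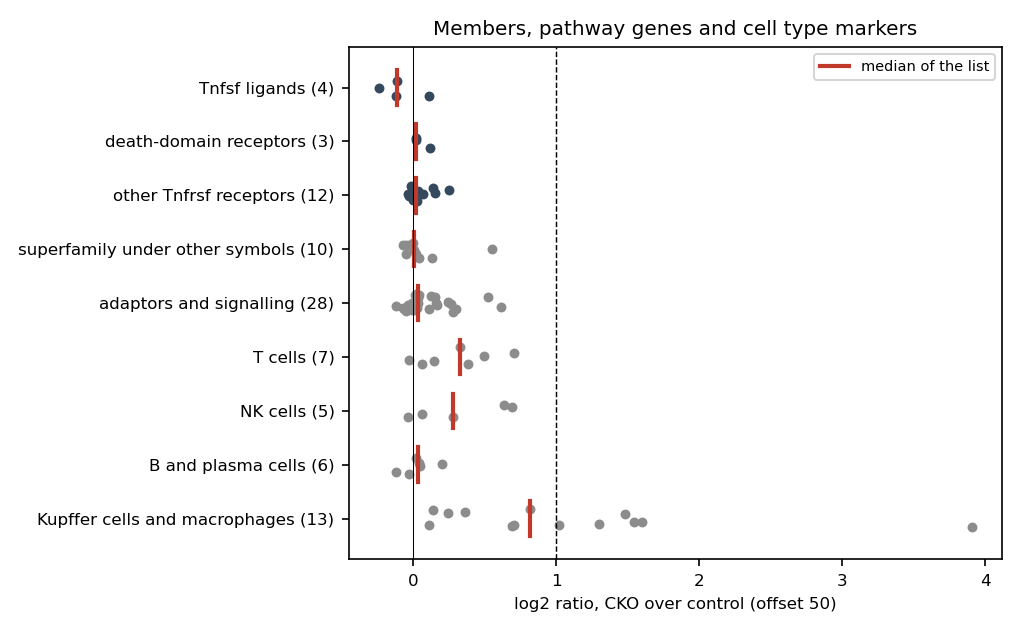
Log2 ratio of CKO over control on the offset scale (x axis) for each gene above background on both arrays, by list (y axis, number of genes in brackets); each point is 1 gene and the red bar is the median of the list. The TNF superfamily lists have medians between -0.11 and 0.02, while the macrophage list has a median of 0.82.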

How the data were processed

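Per the file headers, each scanner file holds the median intensity of every spot and of its local background in 1 colour at 635 nm, from 3 gains joined by least-squares lines. Per the labels, amplified RNA was coupled to Cy5. The deposited value table also holds intensity. How it was made is not stated, but each column fits a line on the spot intensity with a slope of 0.825 for CKO and 0.859 for control, to within 0.514 and 1.54 of the listed whole numbers. Its median is 25 on both arrays.

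Intensities were corrected with normexp against the mean of the blank spots (69.3 CKO, 67.2 control) with an offset of 50, then gene spots underwent quantile normalization and log2 transformation (limma 3.58.1, R 4.3.3). The local background column was used only as an alternative because it followed the spot's own signal (r = 0.972 CKO and 0.988 control across gene spots, log2). Flagged spots, 0 on the CKO and 4 on the control array, were left out. Gene names came from the platform annotation, which gives 20690 of 23473 probes 1 symbol and the other 2783 not a single one, and a gene is the mean of its probes. Spreads are scaled median absolute deviations in 20 classes of level and ran from 0.03 to 0.21. Where 1 array was at background, the bound is the brighter array's level over the dim array's own level or its detection floor, whichever is larger. Genes above background on both arrays were called by size, 2-fold. The steps were tested on simulated data, the control array's spots redrawn with noise and known changes. That test was not split by level, so it does not show how well changes in dim genes are recovered. Members, lists and tests were chosen with earlier results of these data known; the members named with full values were those with the 8 largest absolute ratios, the 5 with most signal, those above background on 1 array only and the partners of the listed pairs.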

Additional observations from a re-analysis of the deposited data

How the results depend on the processing

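The ratios of this family depended on the handling of background, most members are dim, and 1 array per genotype gives no error between animals. No paired analysis was possible because each genotype has 1 array. With the blank mean subtracted and no offset, and in the deposited values, 2 members (Tnfrsf18 and Tnfrsf9) were at least 2-fold higher, and no member was 2-fold lower under any of the alternatives run. The blank-subtracted and deposited scales are nearly the same measure. With the blank mean subtracted the ligand median was -0.40 and that of the death-domain receptors 0.27, which was 0.42 in the deposited values. Family members under other symbols had a median of 0.29 once dimmer genes, those under the median level, were left out, which rests on 2 genes, Fas (0.55) and Ltbr (0.02). Over all genes, 432 were higher and 196 lower against the local background column, 431 and 84 with the blank mean subtracted, 181 and 19 with an offset of 16, and 585 and 195 in the deposited values. With 1.5-fold as the call, an alternative chosen after seeing the data, 242 genes were higher and 59 lower, and no member was. For the 20 members, 141 of 165 ratios under the alternatives lay within 0.19, the spot-to-spot SD of positive controls, of the ratio given. That count does not measure stability. With no filter, with genes at or above the median level and with the brightest probe, the ratio is the same by construction. Each of these members has 1 probe. The offset also keeps the ratios of dim genes small. Under the alternatives 9 members kept 1 sign, among them Tnfrsf18, Tnfrsf9 and Tnfsf8. Their ratios against the local background column were 0.01, 0.03 and -0.05. The causes of these shifts were not tested.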

Other observations

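TNF superfamily genes lie in clusters, and in the RefSeq gene order several members are direct protein-coding neighbours. The mouse decoy receptor Tnfrsf22 (log2 ratio -0.02) lies beside Tnfrsf23 (-0.04), and on its other side is Tnfrsf26, which passed background in CKO liver only. Tnfrsf4 (0.07) lies beside Tnfrsf18 (0.25), and both were on the higher side. Tnfsf13 (0.11) lies beside Tnfsf12 (-0.11), with ratios of opposite sign. Tnfsf8 (-0.24) lies beside Tnfsf15, which passed background in CKO liver only, and Tnf lies between Ltb (-0.05) and Lta (-0.03) and passed background in CKO liver only.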
